A study of Mus musculus with 6 samples.

Results

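The genes described here encode the oxidative phosphorylation machinery of the mitochondrial inner membrane. Membership follows from the symbol: the rule took every protein-coding gene of the mouse build GRCm38 on chromosomes 1 to 19 and X whose symbol starts with Nduf, Sdha, Sdhb, Sdhc, Sdhd, Uqcr, Cox4, Cox5, Cox6, Cox7, Cox8, Cyc1 or Atp5. This gave 101 of 21631 protein-coding genes. By role, 39 belong to complex I, 4 to complex II, 9 to complex III, 20 to complex IV and 17 to complex V, and 12 are assembly factors whose symbols (Ndufaf and Sdhaf) share the prefix but whose products build complexes I and II without being part of them. Ndufa4 and Ndufa4l2 were placed with complex IV.

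Oxidative phosphorylation passes electrons from NADH (complex I) and succinate (complex II) through complex III to oxygen at complex IV, and the proton gradient built on the way drives ATP synthesis at complex V. The mitochondrial genome encodes a few core subunits, and the nuclear genes described here supply the others, and most of these are expressed in nearly all tissues. Several members of complex IV come as pairs of isoforms, one found in nearly all cells and the other mainly in heart and skeletal muscle, lung or testis.

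Chromatin accessibility was profiled by ATAC-seq (a transposase inserts adapters where DNA is open, and sequencing shows where) in thymus from mice aged 4 weeks on a mixed background of 50% BALB/C and 50% C57BL6. One group of 3 libraries came from p53 AD/- mice, which carry the AD allele of the tumour suppressor gene p53 (the series describes this p53 as dimeric, whereas p53 normally acts as a tetramer) over a null allele. The other group of 3 libraries came from p53 -/- mice, in which p53 is absent. Both genotypes therefore lack a wild-type p53 allele, and all alterations were in the germline, so every cell of the thymus and of the animal carried them. The comparison asks which chromatin is open with the AD form of p53 and not without p53, or the reverse. Nothing in the labels says that the 6 libraries came from different mice, so the spread between libraries may be technical. Replicates were numbered in accession order, which pairs nothing.

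Each library was represented by the list of peak summits that the authors deposited, with 1 position and 1 score a summit. On the chromosomes used, the AD/- lists held 54615, 60157 and 44492 summits and the p53-null lists 54139, 55647 and 58017. AD/- library 3 was the shortest list. All 20 genes of a T cell development list had a summit within 1 kb of a gene end in each library, against 3 of 10 B cell genes, 1 to 3 of 12 myeloid genes, 3 of 9 erythroid genes, 3 of 8 adipose genes and 3 or 4 of 12 striated muscle genes. Thymic epithelial markers were present for 5 to 9 of 12 genes: 7, 8 and 5 in the AD/- libraries, and 9, 9 and 8 in the p53-null libraries. Endothelial and mesenchymal markers were present for 5, 5 and 4 of 12 genes in AD/- and for 3, 4 and 3 in p53-null libraries. The part of cell composition in the results was not tested, and in a whole thymus a change in chromatin within cells and a change in the share of cells of a type cannot be told apart.

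The sequences in front of 6 members are shown as examples of what lies before the starts. Cox7a2 and Cox8a are the isoforms of complex IV subunits found in most tissues, and Cox7a1 and Cox8b are their counterparts of heart and skeletal muscle. Atp5g3 is 1 of the 3 genes for the c subunit, the rotating ring of ATP synthase, and Cox6a1, another common complex IV isoform, holds several of the motifs counted further on. Each line gives the 250 bases before the annotated start, 5′ to 3′ on the gene's strand, from RefSeq for build GRCm38.p6. Capitals mark matches, on either strand, to the ETS family motif CCGGAAG (bound by GABPA), the NRF1 core GCATGCGC, the YY1 motif AAGATGGC, the GC box GGGCGG (SP1), the NF-Y motif CCAAT, the TATA box TATAAA, the CREB motif TGACGTCA and the core AAGGTCA of oestrogen-related receptors (ERR).
Cox7a2, chr9:79759854-79760103, minus strand: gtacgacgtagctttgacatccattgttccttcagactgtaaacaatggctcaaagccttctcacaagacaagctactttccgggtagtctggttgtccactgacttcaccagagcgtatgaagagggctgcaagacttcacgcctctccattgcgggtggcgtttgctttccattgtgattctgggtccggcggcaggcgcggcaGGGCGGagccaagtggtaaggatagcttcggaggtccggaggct
Cox7a1, chr7:30183921-30184170, plus strand: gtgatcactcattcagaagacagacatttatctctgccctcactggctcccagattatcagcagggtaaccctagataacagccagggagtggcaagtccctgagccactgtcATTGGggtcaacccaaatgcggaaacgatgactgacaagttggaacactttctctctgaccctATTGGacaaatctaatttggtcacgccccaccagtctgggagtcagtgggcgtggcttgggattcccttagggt
Cox8a, chr19:7217617-7217866, minus strand: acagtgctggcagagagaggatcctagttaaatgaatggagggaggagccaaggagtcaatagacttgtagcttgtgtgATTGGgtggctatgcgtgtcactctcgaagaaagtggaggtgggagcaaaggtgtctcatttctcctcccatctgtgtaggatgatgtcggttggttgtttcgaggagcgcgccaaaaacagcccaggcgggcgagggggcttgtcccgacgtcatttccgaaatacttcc
Cox8b, chr7:140900447-140900696, minus strand: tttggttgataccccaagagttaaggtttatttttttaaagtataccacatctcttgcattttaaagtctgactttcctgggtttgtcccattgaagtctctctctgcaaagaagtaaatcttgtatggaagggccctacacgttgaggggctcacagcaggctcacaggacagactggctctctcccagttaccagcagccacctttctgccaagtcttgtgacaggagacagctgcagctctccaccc
Atp5g3, chr2:73911327-73911576, minus strand: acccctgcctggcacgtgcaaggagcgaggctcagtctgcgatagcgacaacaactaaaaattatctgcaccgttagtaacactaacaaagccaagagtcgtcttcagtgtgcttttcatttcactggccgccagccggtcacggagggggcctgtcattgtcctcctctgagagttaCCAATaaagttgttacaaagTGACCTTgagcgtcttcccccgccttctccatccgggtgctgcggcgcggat
Cox6a1, chr5:115348959-115349208, minus strand: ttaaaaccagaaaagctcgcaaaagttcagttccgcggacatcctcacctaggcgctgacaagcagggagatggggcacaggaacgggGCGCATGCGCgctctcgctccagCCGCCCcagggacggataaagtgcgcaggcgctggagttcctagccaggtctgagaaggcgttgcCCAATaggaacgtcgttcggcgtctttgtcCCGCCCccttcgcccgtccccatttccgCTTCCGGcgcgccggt

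The stretch before Cox7a2 held 14 CpG dinucleotides, that of Cox8a 11, that of Atp5g3 15 and that of Cox6a1 26. Muscle isoform Cox7a1 had 4 CpGs in the same length, and muscle isoform Cox8b had 1 and no match to any of the capitalised motifs. In Cox6a1 the capitals GCGCATGCGC hold overlapping matches of the NRF1 core on opposite strands, since that core is nearly its own reverse complement. The ERR match of Atp5g3 reads TGACCTT here and lies 52 bases before the start.

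A summit within 1 kb of either gene end was found for 93, 93 and 91 members in the AD/- libraries and for 93, 93 and 92 in the p53-null libraries. As shares, these are a mean of 91.4% ± 1.14 (SD, n = 3 libraries) in AD/- and 91.7% ± 0.572 (SD, n = 3 libraries) in p53-null thymus. The difference of -0.33 percentage points was smaller than the spread of the AD/- libraries, and it was 0.33 without AD/- library 3. Over all 21631 genes the shares were 55.8% ± 1.79 (SD, n = 3) and 56.4% ± 0.1 (SD, n = 3). In all 6 libraries, 91 members (90.1%) and 11385 of all genes (52.6%) had such a summit. No member had one in all 3 libraries of 1 genotype and none of the other, in either direction. That rule called 0.0185% of all genes for AD/- and 0.0324% for p53-null thymus, so a count of 0 among 101 members lies near the background. With 3 libraries against 3, the smallest 2-sided p of an exact permutation test is 0.10, and no single gene or region could pass a threshold of 0.05.

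By complex, the shares were high in every group but complex IV. All 4 genes of complex II (succinate dehydrogenase, which is also an enzyme of the citric acid cycle), all 9 of complex III and all 12 assembly factors had a gene-end summit in each library. Complex I, the NADH dehydrogenase, had one for 36 of 39 genes in all 6 libraries, and complex V, the ATP synthase, for 16 of 17. Complex IV, cytochrome c oxidase, had one for 14 of 20 genes in all 6 libraries. Its share was 75% in 5 libraries and 70% in AD/- library 3, so without that library both genotypes stood at 75%.

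**Figure D1:**
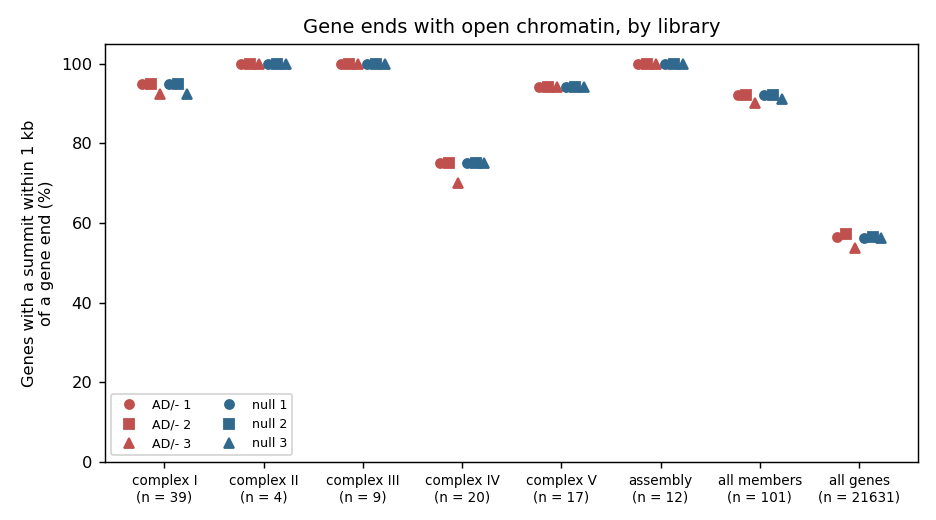
Share of genes with a summit within 1 kb of a gene end (vertical axis, percent) for each complex, the assembly factors, all members and all protein-coding genes; each point is 1 library, red for p53 AD/- and blue for p53-null. Complexes II and III and the assembly factors sit at 100% in all 6 libraries, complex IV at 70% or 75%, and all genes between 53.8% and 57.2%.

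The 10 members that missed a gene-end summit in at least 1 library fell into several kinds. Of these, 7 had none in any library (Atp5g3, Cox7a2, Cox7b2, Cox8b, Cox8c, Ndufb4b and Ndufb4c), and the others, Cox6a2 and Cox5a among them, had one in some. For Atp5g3, Cox7a2 and Cox5a the annotated gene reaches beyond the start in the RefSeq promoter table, and the strongest nearby summit lay at that start in each library. At Atp5g3 this summit was 31, 36 and 31 bp after the start in the AD/- libraries and 29, 29 and 72 bp after it in the p53-null libraries, with scores from the 91.6th to the 96.9th percentile of the library. At Cox7a2 it was 45 to 50 bp after the start, at the 92.5th to 94.7th percentile. Cox5a, a subunit of the matrix side of complex IV, had its summit 30 bp after the start in all 3 AD/- libraries and p53-null library 3, and 16 bp before it in the other two, at the 89.8th to 93.4th percentile. These 3 genes thus missed a summit at an outermost gene end while holding a strong one inside the annotated gene.

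A further 6 are tissue-restricted isoforms and gene copies. Cox7b2 and Cox8c, both isoforms best known from testis, and the complex I gene copies Ndufb4b and Ndufb4c had no summit within 5 kb in any library. The muscle isoform Cox8b had none closer than 2921 to 3026 bp upstream, at the 43.6th to 64.8th percentile. Its common counterpart Cox8a was open at a gene end in all 6 libraries. Cox6a2, the heart and muscle partner of Cox6a1, had a gene-end summit in AD/- library 1 and p53-null libraries 1 and 2 only, and a stronger one 2000 to 2043 bp away in each library at the 53rd to 60.6th percentile. Adding RefSeq starts to the gene ends, an alternative chosen after these values were seen, raised the members open in all 6 libraries from 91 to 94.

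Starts themselves could be examined for the 82 members that the promoter table lists, out of 17274 genes in it. A summit lay within 1 kb of a start in all 6 libraries for 78 of the 82 (95.1%), against 9530 of all listed genes (55.2%). Cox7b2, Cox8b and Ndufb4b had none in any library. Ndufa13, a complex I subunit also known as GRIM-19, had one in p53-null library 2 alone, 344 bp after the start. In the other libraries its nearest summit lay before the start, just beyond the 1 kb limit. Ndufa13 was nevertheless open at a gene end in all 6 libraries, at the 92.3rd to 95.8th percentile. Among the 78, the median summit position was 32.2 bp before the start (quartiles 78.8 bp before and 1.5 bp after it), and among all genes 25 bp before (84 bp before to 24.5 bp after). The summit lay within 100 bp of the start for 60 of the 78 (76.9%) against 68.1% of all genes. Positions varied little between libraries: the median range over the 6 libraries was 43 bp for members and 49 bp for all genes, and it exceeded 100 bp for 11.5% and 17.9% of them.

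**Figure D2:**
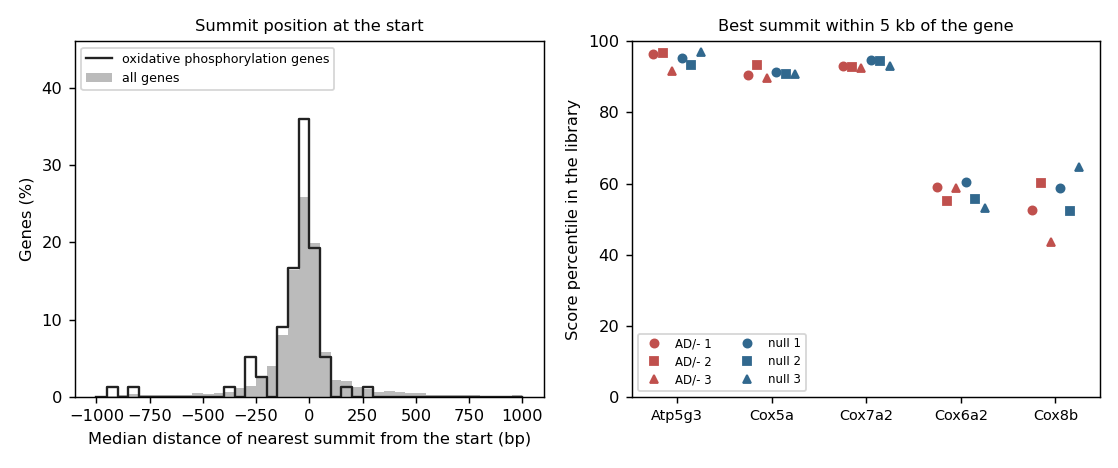
Left, median distance of the nearest summit from the annotated start in bp (horizontal axis) as a share of genes in percent, for 78 members (line) and all genes (grey bars); right, score percentile of the strongest summit within 5 kb of 5 members that lack a gene-end summit in at least 1 library, 1 point a library. Most members peak just before the start, and Atp5g3, Cox5a and Cox7a2 sit at or above 89.8% in all libraries while Cox6a2 and Cox8b sit between 43.6% and 64.8%.

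The height of the gene-end summit was compared as a rank. The score the authors deposited grows with depth, so the strongest gene-end summit of each gene was ranked among the 11385 genes that had one in all 6 libraries, from 0 (weakest) to 100 (strongest), and the 91 members of that kind were ranked. A rank is a level within 1 library, not a read count. The median member had a rank of 60.0, against 50.1 for all ranked genes, and 58 of 91 (63.7%) lay above 50. Only 20 (22.0%) lay above 75, against 24.8% of all ranked genes. Members thus gathered in the upper middle of the range more than at its top. None had more than 1 gene-end summit in every library, against 955 (8.39%) of the ranked genes. Role medians ran from 47.6 for complex IV over 57.7 for complex III, 58.2 for assembly factors, 59.9 for complex I and 62.4 for complex V to 69.0 for the 4 genes of complex II.

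In complex I, the highest ranks belonged to Ndufb5 and Ndufa6, both accessory subunits. Ndufb5 had ranks of 95.4, 94.8 and 93.5 in AD/- and 96.6, 97.0 and 93.5 in p53-null thymus. Ndufa6 had 88.5, 92.1 and 90.1 in AD/- and 94.8, 93.8 and 90.6 in p53-null thymus. The ranges of the 2 genotypes overlapped for both genes. At the low end, X-linked Ndufb11 had 28.0, 27.2 and 24.2 against 23.2, 25.8 and 26.3, and Ndufc2 had 27.7, 29.9 and 27.1 against 31.5, 24.5 and 32.9. Ndufa1, the other X-linked accessory subunit, had 31.3, 30.0 and 29.4 against 31.7, 27.7 and 30.1. These low genes too overlapped between the genotypes.

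Complex II held its order in each library. Sdha, the flavoprotein that oxidises succinate, was highest with 93.1, 93.5 and 89.6 in AD/- and 91.2, 90.8 and 92.9 in p53-null thymus. The membrane anchor Sdhd had 73.5, 71.9 and 77.2 against 73.3, 69.9 and 77.4. Sdhb, the iron-sulphur subunit, had 68.9, 64.8 and 64.3 against 62.1, 68.3 and 58.6. The other anchor, Sdhc, was lowest with 39.7, 36.1 and 44.6 against 43.4, 48 and 46.9. No neighbours in this order overlapped across the 6 libraries, Sdhd and Sdhb lying closest, and each gene overlapped between the genotypes.

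Within complex III, Uqcrq, a small subunit near cytochrome b, had ranks of 96.2, 96.4 and 96.8 in AD/- and 97.0, 85.2 and 94.8 in p53-null thymus. The Rieske iron-sulphur protein Uqcrfs1 followed with 65.8, 73.9 and 72.7 against 68.2, 71.1 and 70.3. Cytochrome c1 (Cyc1) had 23.6, 24.3 and 25.3 against 23.7, 28.2 and 25.4, and Uqcrb had 27.7, 27.9 and 23.6 against 28.9, 22.1 and 27.8. Genotypes overlapped in all 4 genes.

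Complex IV ranged from Cox6a1 and Cox5b down to Cox7b. Cox5b had 75.3, 72.3 and 80.7 in AD/- and 81.7, 81.8 and 70.5 in p53-null thymus, and Cox6a1 had 78.8, 73.7 and 71.8 against 76.1, 79.8 and 76.1. X-linked Cox7b was weakest with 6.99, 7.56 and 10.1 against 6.74, 6.44 and 8.34. Isoform pairs stood apart in most cases. Cox4i1, the common form of a regulatory subunit, had 61.3, 61.4 and 72.1 against 71.5, 61.2 and 64.4, while Cox4i2, the lung form, had 11.6, 9.28 and 10.7 against 9.67, 13.1 and 12.6. Ndufa4 had 62.4, 59.8 and 62.6 against 61.5, 48.8 and 57.2, while Ndufa4l2, its hypoxia-induced paralogue, had 8.81, 7.06 and 10.8 against 9.17, 10.5 and 8.74. In both pairs the common form was higher in all 6 libraries with no overlap. The summits ranked for Cox4i1 and Ndufa4 lay in open stretches nearer to an end of another gene. Their ranks may therefore describe that neighbour as well.

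The remaining isoforms followed a less even course. Muscle isoform Cox7a1 had 31.7, 27.1 and 23.1 in AD/- and 26.2, 33.0 and 27.6 in p53-null thymus, so it had a summit at its gene end in every library where the strongest summit near Cox7a2 was at the inner start. As score percentiles of the library, the Cox7a1 summit lay at 72.8 to 83.3 and that of Cox7a2 at 92.5 to 94.7. The common form was thus the stronger by this measure in each library. Cox6b1 and the testis form Cox6b2 lay close together: 30.9, 28.3 and 28.5 against 26.0, 30.0 and 32.7 for Cox6b1, and 39.1, 38.5 and 32.9 against 25.3, 36.3 and 32.6 for Cox6b2. Here the testis form had the higher rank in 4 of 6 libraries, and the ranges of the pair overlapped. Cox8a had 64.7, 62.2 and 59.3 against 60.3, 64.7 and 60.6, with Cox8b and Cox8c unranked for want of a gene-end summit. A gene-end summit is not a measure of expression, and the levels of these transcripts were not analysed here.

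Complex V had the highest member of all. Atp5g1, a c-ring gene, had 99.9, 99.9 and 99.9 in AD/- and 99.3, 99.5 and 99.9 in p53-null thymus. Atp5g2, the next c-ring gene, had 88.0, 87.2 and 87.1 against 79.8, 94.2 and 85.3. Both overlapped between the genotypes, and Atp5g3 had its summit at the inner start described above. Stalk subunit Atp5pb had 90.4, 92.0 and 93.6 against 90.6, 90.5 and 90.5. At the low end, Atp5l, the g subunit, had 29.3, 32.2 and 33.0 against 30.8, 26.5 and 29.3.

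Assembly factors ran from Ndufaf1 to Sdhaf2. Sdhaf2, which attaches the flavin to Sdha, had 92.3, 93.3 and 90.3 in AD/- and 93.7, 81.1 and 95.3 in p53-null thymus.

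**Figure D3:**
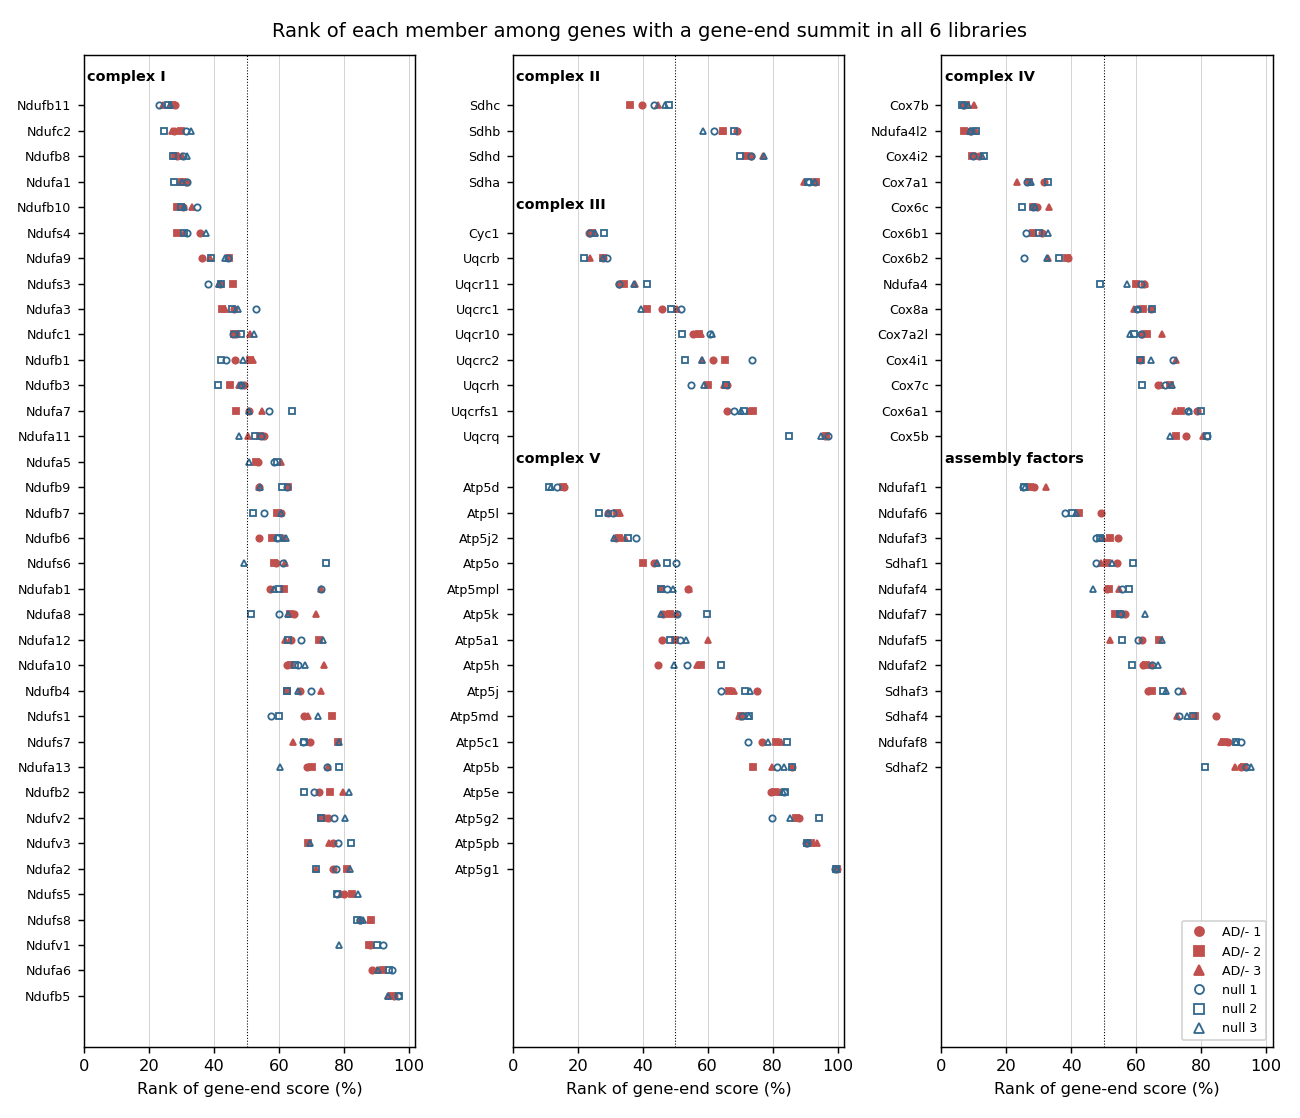
Rank of the gene-end score (horizontal axis, 0 to 100 percent) of the 91 ranked members, grouped by complex; filled red symbols are the 3 p53 AD/- libraries and open blue symbols the 3 p53-null libraries. Differences between genes (Cox7b near 7, Atp5g1 near 99.9) are far wider than those between libraries of a gene.

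Genotypes were then compared by counting genes whose 3 AD/- ranks all lay above or all below the 3 p53-null ranks. Of 91 members, 6 (6.59%) were higher in AD/- thymus, against a background of 4.36% of the 11385 ranked genes, and 3 (3.30%) were higher in p53-null thymus, against 4.18%. Both shares are near the background. The balance depended on the scaling: ranked among all summits of a library, 1 member was higher in AD/- (background 1.01%) and 6 in p53-null thymus (background 5.31%). Without AD/- library 3, 10 members were higher in AD/- (background 10.1%) and 9 in p53-null thymus (background 10.2%). The median difference, AD/- minus p53-null, was 0.03 rank points for members and -0.04 for all genes, with 46 members positive and 45 negative. The median size of the difference was 1.66 points for members and 1.64 for all genes. AD/- library 3 was the lowest of the 6 libraries for 11 members and the highest for 18.

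The members of these counts show how small the separations were. Atp5d, the delta subunit of the F1 stalk, had the widest gap among those higher in AD/- thymus, with 15.8, 15.4 and 15.4 against 13.6, 11.3 and 11.8. Its means were 15.5 ± 0.244 and 12.2 ± 1.19 (SD, n = 3 each), and 1.81 rank points separated the nearest libraries. The gene-end region of Atp5d, chr10:80139114-80139656, lay away from the starts listed for it, 80142275 and 80142315. A summit within 1 kb of a listed start was also present in all 6 libraries, so this gap may not describe the promoter. Ndufaf1, a factor of early complex I assembly, had 28.5, 27.4 and 32.2 against 25, 25.4 and 25.9, a gap of 1.55. Ndufa8, an accessory subunit, had 64.6, 63.5 and 71.4 against 60.0, 51.4 and 62.8, a gap of 0.676. The assembly factors Ndufaf3 and Ndufaf6 and the supercomplex factor Cox7a2l had gaps of 0.668, 0.351 and 0.386. Higher in p53-null thymus were Ndufaf8, with 88.3, 87.1 and 86.0 against 92.3, 90.7 and 90.8, Atp5e, the epsilon subunit, with 79.6, 80.8 and 82.4 against 83.6, 84.0 and 83.3, and Atp5md with 69.9, 70.4 and 69.6 against 70.5, 72.7 and 72.8.

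Merged regions gave the wider view. Summits of all libraries were extended by 250 bp to each side, and overlapping ones were merged into 73702 regions. Each region went to the gene with the nearest end, within 50 kb, even where it lay inside another gene. Of the regions, 211 fell to members, and 133 of the 211 (63.0%) held a summit in all 6 libraries, against 52.1% of all regions. Regions in 1 library only made up 30 (14.2%) against 16.4%. The AD/- libraries had summits in 166, 181 and 151 of the member regions (166 ± 15, SD, n = 3) and the p53-null libraries in 157, 167 and 172 (165 ± 7.64, SD, n = 3), a difference within the spread. No member region held summits in all 3 libraries of 1 genotype and none of the other, where the background was 0.179% of all regions for AD/- and 0.418% for p53-null thymus. Leaving out 1 library changed this: without AD/- library 3, 3 member regions (1.45%, background 1.08%) met the rule for AD/- thymus and 0 for p53-null thymus (background 0.558%). Without AD/- library 2, 1 region (0.495%, background 0.398%) met it for AD/- and 3 (1.49%, background 1.84%) for p53-null thymus. Without p53-null library 3, 2 regions met it in each direction (0.985%, backgrounds 0.422% and 0.955%).

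**Figure D4:**
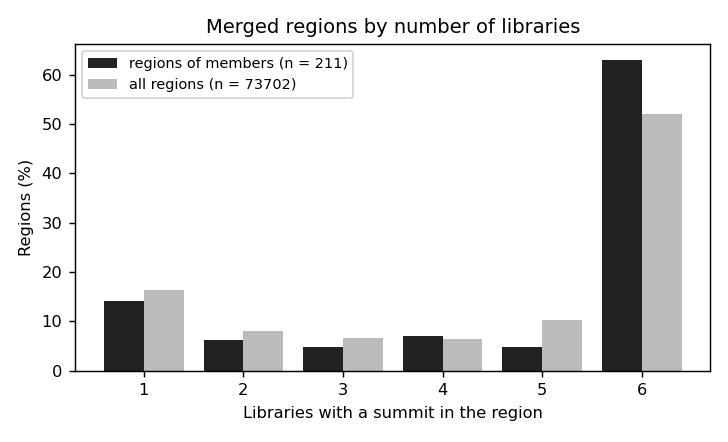
Share of merged regions in percent (vertical axis) by the number of libraries with a summit in the region, for 211 regions assigned to members (black) and all 73702 regions (grey). The bar for 6 libraries stands at 63.0% for members and 52.1% for all regions.

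Regions at a gene end and elsewhere differed in how steadily they were found. At a gene end, 71 of 82 (86.6%) were found in all 6 libraries, with a median score percentile of 90.4, and 82 of 211 (38.9%) lay there against 18.3% of all regions. Inside genes 15 of 32 (46.9%) and outside genes 47 of 97 (48.5%) were found in all 6 libraries, with median percentiles of 29.7 and 33.3. Of the members, 39 (38.6%) had exactly 1 region, against 21.2% of all genes, and 18 (17.8%) had 4 or more, against 25.3%. The 14 members with no region of their own were Atp5h, Atp5j, Atp5md, Cox7b2, Cox8c, Ndufa1, Ndufa13, Ndufa7, Ndufb1, Ndufb11, Ndufb3, Ndufb4c, Ndufb5 and Uqcrh; those of them with a gene-end summit had a neighbour's gene end closer to it.

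A few members had many regions. Ndufaf6, a complex I assembly factor, had 12 regions, of which 4 were found in all 6 libraries. Cox4i2 had 10 (5 in all 6), although its own gene end was weak. Its strongest region lay outside the gene at chr2:152794398-152794984 (GRCm38), 29652 bp away, with percentiles of 87.7, 85.6 and 77.4 in AD/- and 85.7, 84.3 and 86.0 in p53-null thymus. Complex I subunit Ndufa12 had 8 (6 in all 6), and Atp5mpl and Uqcrfs1 had 7 each (4 in all 6). Ndufaf2 and Ndufb4b had 6 each (3 and 1 in all 6). The strongest region outside its member gene was assigned to Ndufv2, a subunit of the NADH-oxidising arm of complex I. It lay at chr17:66076859-66077416, 1658 bp from the gene, at the 96.3rd to 98.2nd percentile in each library. Outside refers to the member gene alone, and whether the region lay inside another gene was not examined. An end of Ankrd12 lies a few bases from an end of Ndufv2, as given below, so this region may be about as close to Ankrd12. Assignment by distance does not show which gene such a region acts on.

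A looser count, at least 2 of 3 libraries of 1 genotype and none of the other, gave 5 member regions (2.37%) for AD/- against a background of 1.51%, and 3 (1.42%) for p53-null thymus against 2.37%. The AD/- regions were assigned to Ndufaf6, Uqcr11, Ndufa12, Uqcrfs1 and Ndufs4, and the p53-null ones to Ndufaf6, Ndufb6 and Ndufaf8. They were weak summits, at the 1.03rd to 28.2nd percentile. Uqcr11, a small complex III subunit, had the strongest, at chr10:80405737-80406261 (GRCm38), with 21.6 and 28.2 in AD/- libraries 1 and 3. Summits of the other genotype lay 816 to 19596 bp away.

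Close neighbours were common. Another protein-coding gene ended or started within 1 kb of a gene end for 56 members (55.4%), against 25.1% of all genes, and within 100 bp for 28 (27.7%) against 8.90%. Member genes were also shorter, with a median of 7279 bp against 17329 bp. Of the 41 neighbour pairs with both strands known, 25 were start to start, 9 end to end and 7 start to end. Over all genes, start to start was also the commonest, with 1688 of 3832 such pairs, against 1263 end to end and 881 start to end. Ndufa7 and Rps28, a ribosomal protein gene, lay 10 bp apart start to start, and so did Sdhaf2 and Cpsf7, a factor of pre-mRNA cleavage, at 14 bp. Atp5md and Taf5 (8 bp) and Ndufaf3 and Impdh2 (10 bp) met end to end, Ndufv2 and Ankrd12 (9 bp) met start to end, and the orientation of Ndufs1 and Eef1b2 (9 bp) was not known. A summit at such a place serves both genes in the count. Ranked members with such a neighbour had a median rank of 60.0 and those without one 57.0.

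Motifs were counted in the promoter windows of the table, 250 bases before to 50 after the start, on both strands, as matches of letters and not as bound sites. A gene with several windows counted once if any of them matched. Members had 87 windows for 82 genes, all genes 21045 for 17274 and open ones 7942 for 6200. Background genes thus had more windows each in which to match. Matches of one motif may overlap those of another, and TGACGTCA reads the same on both strands. NRF1, GABPA and YY1 are the factors best known for respiratory gene promoters. The NRF1 core was in 12 of 82 member promoters (14.6%), against 3.98% of all 17274 genes and 7.15% of the 6200 genes whose window held a summit in all 6 libraries. The YY1 motif was in 11 (13.4%), against 3.6% and 6.13%. CCGGAAG was in 22 (26.8%), against 13.1% and 24.5%. Of the 82 members, 56 had a summit in the window in all 6 libraries. Among these, the NRF1 core was in 16.1%, the YY1 motif in 14.3% and CCGGAAG in 32.1%. Among all 82 members, at least 1 of the 3 was in 38 (46.3%), against 18.9% of all genes and 34.0% of the 6200 open ones. No test was made of these shares.

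Other motifs went differently. The GC box was in 47.6% of member promoters, near the 49.8% of all genes and below the 76.1% of open ones. NF-Y's CCAAT was in 42.7% of members and 42.7% of all genes. AAGGTCA, the ERR core, was in 9.76% of members against 4.72% and 3.34%. TATAAA was in 11.0% against 14.9% and 7.23%, and the CREB motif in 4.88% against 2.58% and 4.48%. The 56 members with a summit in the window in all 6 libraries were also counted apart. Their shares were 51.8% for the GC box, 44.6% for CCAAT, 10.7% for AAGGTCA, 8.93% for TATAAA and 3.57% for the CREB motif. A p53 response-element unit (the 10-base repeat of which p53 sites are made) was matched in the promoters of Atp5j, Cox8a, Ndufb2, Ndufs4 and Sdhaf3, 6.10% of members, against 8.54% of all genes and 7.5% of open ones.

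Positions of the matches differed by motif. YY1 matches had a median position of 24 bases after the start, with 9 of 11 downstream of it. Those of the ETS motif had a median of 17 bases before the start, and those of the NRF1 core 49 before. The NRF1 core was in the promoters of Atp5g2, Atp5k, Atp5l, Cox6a1, Ndufa11, Ndufa6, Ndufa8, Ndufaf4, Ndufaf5, Sdhb, Uqcr11 and Uqcrc1, which spans complexes I to V and the assembly factors. Median CpG count in a window of 300 bases was 20 for members, 13 for all genes, 22 for open promoters and 3 for promoters with no summit within 1 kb.

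**Figure D5:**
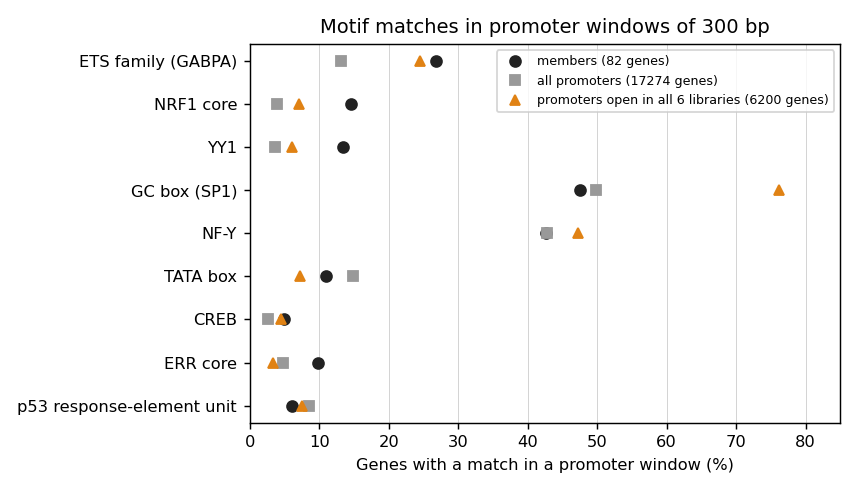
Share of genes in percent (horizontal axis) with a match in a promoter window of 300 bp, for members (black circles), all promoters (grey squares) and promoters with a summit in all 6 libraries (orange triangles). Members lie to the right of both backgrounds for the NRF1 core, YY1 and the ERR core, and narrowly so for the ETS and CREB motifs. They lie far to the left of open promoters for the GC box.

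Lists of related genes outside the symbol rule were counted in the same way. Of 46 other respiratory genes, among them further assembly factors and the cytochrome c genes, 44 had a gene-end summit in each library, with a median rank of 65.0. The exceptions were Cyct, the testis cytochrome c, and Atpaf2, an assembly factor of complex V. Somatic cytochrome c (Cycs) had a median rank of 94.6. Of 13 genes of ubiquinone synthesis, 11 had one in each library, with a median rank of 41.9, below that of all ranked genes, and Pdss1 and Pdss2 had none. Of 22 regulators of respiratory genes, 18 had one in all 6 libraries, with a median rank of 71.7, Polg had one in p53-null library 1 alone, and Gabpb1, Esrrb and Esrrg had none. As with Atp5g3, a gene counted here as having none may hold a summit at a start inside the annotated gene. This was not examined for these lists. Among the regulators, Esrra (rank 96.3), Yy1 (84.0), Nrf1 (80.3), Tfam (76.5) and Gabpa (69.8) were well above the median gene, while Ppargc1a, the coactivator of mitochondrial biogenesis, had a rank of 11.7.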

How the data were processed

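Summit lists of 6 ATAC-seq libraries (3 p53 AD/-, 3 p53 -/-) were used as deposited by the authors, 1 list a library and not pooled. Per the submitters' processing notes, the tools were MACS2 2.1.2, Picard 2.9.0, Bowtie2 2.3.4.2 and Trim Galore 0.4.5, on build GRCm38; their roles and settings are not given in the sources used here. The deposited score was read from its values as a −log10 q-value, since the lists begin near 1.30, the value of q = 0.05. Neither reads nor peak widths were used, which leaves the depth of each library unknown. Scores grow with depth. Steps on transposase shift, duplicates and masking are likewise not given in the sources used here.

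Gene ends came from RefSeq (GRCm38.p6), and Python 3.11.15, pandas 2.3.3, NumPy 2.4.6 and SciPy 1.17.1 were used. Summits within 1 kb of a gene end were counted per library; scores were ranked among the 11385 genes with one in all 6 libraries; regions were merged after extension by 250 bp. The scripts were tested on simulated data. Named genes were members without a gene-end summit in some library, isoform groups, the 2 highest and 2 lowest ranks per complex, non-overlapping ranks (up to 6 a direction), the most regions, the nearest neighbours and X-linked genes. Members, lists and rules were chosen with earlier results of these data known. Alternatives were other distances, extensions, score minimums, list lengths and left-out libraries. Promoters of 82 members were matched by gene identifier, and 19 had no entry. The result for 1 member is not reported here.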

Additional observations from a re-analysis of the deposited data

How the results depend on the processing

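Counts of members open in every library (78 to 94) and of member regions (144 to 220) stayed within 1.5 times under every alternative run. Those of members open in 1 genotype only stayed at 0 in both directions. The sets differed: 78 was out of the 82 members with listed starts, 79 came from subunits without assembly factors, and 94 was out of 101. With 1 library left out, the counts covered the libraries that remained. The difference in gene-end share ranged from -0.66 to 0.33 percentage points when 1 library was left out, and was positive only without AD/- library 3. It was -0.99 with summits within 500 bp, and 0 with a score of at least 5 or lists of equal length. Counts of non-overlapping ranks moved most. Leaving out 1 library gave 8 to 14 members higher in AD/- and 6 to 12 higher in p53-null thymus, with backgrounds of 7.87% to 13.3% and 7.36% to 12.4% of all ranked genes, the highest without p53-null library 3 (14 and 12). Fewer libraries overlap less often by construction. Ranking among all summits gave 1 member higher in AD/- and 6 in p53-null thymus (backgrounds 1.01% and 5.31%). Subunits without assembly factors, 79 of them ranked, gave 3 higher in AD/- and 2 in p53-null thymus (backgrounds 4.36% and 4.18%). Genotype-specific member regions numbered 0 to 3 for AD/- and 0 to 3 for p53-null thymus with 1 library left out, where the rule called 0.322% to 1.08% and 0.558% to 1.84% of all regions, and 5 and 3 under the rule of at least 2 of 3 libraries. Other extensions, the 10 kb limit and a score of at least 5 kept both at 0. No paired analysis was possible because the labels carry no replicate numbers. Lists without read depth limit all comparisons to presence and rank.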
